A study of Mus musculus with 2 samples.

Results

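Gdnf, its receptors and the genes that respond to it were examined as 9 genes in the newborn mouse kidney: the ligand Gdnf, the co-receptors Gfra1 and Gfra2, the receptor tyrosine kinase Ret, the ETS transcription factors Etv4 and Etv5, the phosphatase Dusp6, the transporter Slco4c1 and the transcription factor Myb. They were chosen by name as a signalling pathway, and all 9 were found by Ensembl identifier among the 43346 Ensembl genes of the deposited tables, 21474 of which the annotation names as protein-coding. Total RNA was sequenced from 2 newborn pups (strain B6NCrl, postnatal day 0), with both kidneys of a pup in its library. The pups came from 1 mother, no treatment or mutation is labelled, the sex was not collected, and they form 1 group, so n = 2 littermates and differences between litters are not covered. The labels name pup 1 and pup 2 but give both the same donor entry, and the libraries were counted as separate animals, on which every SD here rests. Per the labels each library was made from 10 ng of RNA longer than 200 nt. Expected counts (estimated reads) totalled 41584961 in pup 1 and 48823952 in pup 2.

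Gdnf is secreted by the mesenchyme around the ureteric bud, the epithelial tube that grows into the collecting duct tree. On cells at the bud's tips it binds the co-receptor Gfra1, and the pair activates Ret, whose signal through the Ras and ERK kinases turns on Etv4 and Etv5 and drives the tips to grow and branch. Mice that lack Gdnf, Gfra1 or Ret mostly form no kidney, and Dusp6 and Sprouty proteins dampen the same signal.

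The deposited tables give values for several transcripts of Ret, Gfra1 and Etv4, whose coding forms in M21 differ at the sites shown here. The Ret forms part near the end of the coding sequence, within the intracellular tail of the receptor, so the 3′ ends of the coding sequences are shown first. Capitals mark the coding bases that each form does not share with the other, and the lower-case bases are the last 30 shared ones. The short-tailed form, Ret-202, is widely known as Ret9 and has 1073 codons, with its own bases at chr6:118155259-118155287. The long-tailed form, Ret-201, is known as Ret51 and has 1115 codons, with its own coding bases in exon 20 at chr6:118153856-118154010. Both are read from the minus strand and given 5′ to 3′ from GENCODE M21 transcripts of GRCm38, the assembly mm10.
Ret-202: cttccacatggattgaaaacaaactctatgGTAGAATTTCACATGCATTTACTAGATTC
Ret-201: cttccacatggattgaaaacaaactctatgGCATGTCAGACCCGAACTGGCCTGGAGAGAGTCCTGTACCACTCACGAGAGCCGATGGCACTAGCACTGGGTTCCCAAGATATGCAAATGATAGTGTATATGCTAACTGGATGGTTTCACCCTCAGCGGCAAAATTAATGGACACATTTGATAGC

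The Gfra1 forms differ by a small exon of 15 bases, exon 5 of 11 in Gfra1-201, at chr19:58392573-58392587 on the minus strand. It adds 5 codons, giving 468 in Gfra1-201 against 463 in Gfra1-203. In Etv4 the difference is an 18-base stretch at the start of exon 7 of 13, at chr11:101774228-101774245 on the minus strand, which adds 6 codons to Etv4-201 (486 codons) over Etv4-202 (480 codons). Capitals mark the added bases, and 30 shared coding bases stand on either side.
Gfra1-201: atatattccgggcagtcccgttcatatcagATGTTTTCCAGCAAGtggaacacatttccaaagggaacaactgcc
Gfra1-203: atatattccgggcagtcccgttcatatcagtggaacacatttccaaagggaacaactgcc
Etv4-201: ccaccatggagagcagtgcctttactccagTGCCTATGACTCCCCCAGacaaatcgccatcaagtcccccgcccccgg
Etv4-202: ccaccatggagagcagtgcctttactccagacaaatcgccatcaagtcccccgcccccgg

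All 9 genes were detected, meaning a level of at least 1 TPM (transcript abundance scaled for transcript length and library size) in both pups. Among all protein-coding genes 61.5% were detected. The 9 genes spanned a 37.5-fold range of mean TPM and fell into a high group of 4 and a low group of 5. Dusp6, Gfra1, Etv5 and Etv4 stood at 34.0 to 56.2 TPM, above the median detected gene (16.2 TPM in pup 1 and 15.4 in pup 2). Slco4c1, Ret, Gdnf, Myb and Gfra2 stood at 1.49 to 7.23 TPM, below it. In whole kidney, a low level in every cell and a high level in few cells cannot be told apart, and fewer cells of a type cannot be told apart from less RNA per cell.

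The order of the levels was the same in both pups beyond their spread for nearly every pair of genes. The TPM ranges of the pups did not overlap in 35 of the 36 pairs, and the exception was Etv5 with Etv4. Of the 8 neighbours in the order, 7 were apart. The share of pairs apart among other genes was not determined. Mean levels of these genes spanned 37.5-fold, while the median absolute log2 ratio between the pups was 0.10 over all genes tested. The number of pairs apart is therefore not read as a trait of these genes, and whether it differs from that of other genes was not tested. The deposited intervals of the TPM, whose level is not given in the sources used here, overlapped for Etv5 and Etv4 in both pups and for Myb and Gfra2 in pup 2. The step between Etv4 and Slco4c1 was the widest between neighbours, at 5.10-fold.

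**Figure D1:**
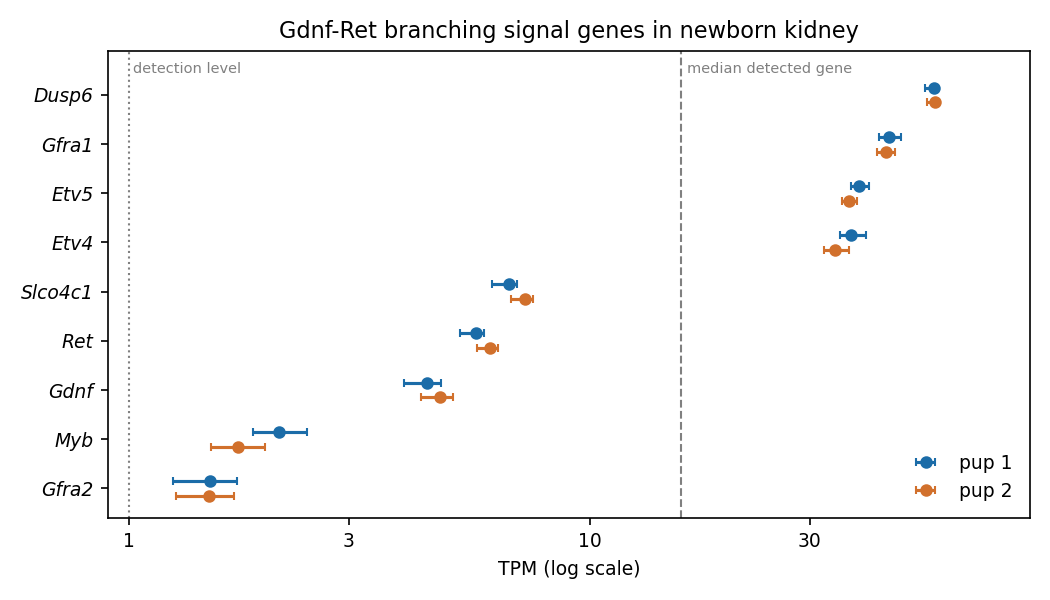
Levels of the 9 genes in each pup, as TPM on a log axis; points are the deposited TPM and bars the deposited interval, whose level is not given. Dusp6, Gfra1, Etv5 and Etv4 lie above the median detected gene (dashed line, mean of the pups' medians), and the other 5 lie between it and the detection level of 1 TPM (dotted line).

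Gdnf, the ligand, lay below the median detected gene. Its level was 4.42 TPM in pup 1 and 4.73 TPM in pup 2 (447 and 589 expected counts), a mean of 4.58 ± 0.219 (SD, n = 2). The gene, ENSMUSG00000022144.3, lies at chr15:7810846-7837575 on the plus strand and had 1 transcript in the deposited tables. Of protein-coding genes, 49.0% in pup 1 and 50.2% in pup 2 stood below it, which places Gdnf at the middle of that distribution. By TPM it was not the highest ligand of its family.

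Nrtn, the ligand that prefers Gfra2, had 7.15 TPM in pup 1 and 9.43 TPM in pup 2, above Gdnf in both. By expected counts, which are not per length, Nrtn was below Gdnf, at 196 and 318 against 447 and 589. The order of the 2 thus rests on the transcript lengths used, which were not varied for Nrtn. Nrtn held 52.1% and 56.1% of the summed TPM of the 4 Gdnf family ligands in pups 1 and 2, against 32.2% and 28.1% for Gdnf. Artn, the ligand that prefers Gfra3, followed at 2.15 and 2.22 TPM. Pspn, the ligand of Gfra4, was at 0 in pup 1 and 0.44 TPM in pup 2, from 6 counts. By TPM the 4 ligands kept 1 order in both pups.

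Gfra1, the co-receptor that binds Gdnf, was the second highest of the 9 genes. Its level was 44.5 TPM in pup 1 and 44.0 TPM in pup 2 (4873 and 5870 expected counts), a mean of 44.2 ± 0.396 (SD, n = 2). The gene, ENSMUSG00000025089.11, spans chr19:58235604-58455909 on the minus strand. The pups differed by less than 1 TPM. Most protein-coding genes lay below Gfra1, 83.7% of them in pup 1 and 84.4% in pup 2.

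Gfra2, the co-receptor that binds Nrtn best, was the lowest of the 9. Its level was 1.50 TPM in pup 1 and 1.49 TPM in pup 2 (150 and 183 expected counts), a mean of 1.50 ± 0.00707 (SD, n = 2). The gene, ENSMUSG00000022103.9, lies at chr14:70890120-70979838 on the plus strand. Its deposited interval ran from 1.25 to 1.72 TPM in pup 1 and from 1.26 to 1.69 in pup 2, far wider than the gap between the pups. The TPM of Gfra1 was 29.7 times that of Gfra2 in pup 1 and 29.5 times in pup 2 (log2 ratio 4.89 ± 0.00609, SD, n = 2).

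Gfra4, the co-receptor for Pspn, took the second place among the co-receptors, with 11.9 TPM in pup 1 and 11.3 TPM in pup 2. Gfra1 held 76.2% and 76.7% of the summed TPM of Gfra1 to Gfra4 in pups 1 and 2, Gfra4 held 20.4% and 19.7%, and Gfra2 held 2.57% and 2.60%. Gfra3 was under the detection level at 0.50 and 0.56 TPM. Gfral, a related receptor of the hindbrain that binds Gdf15, had 0 counts in both libraries, which allows up to 0.0721 CPM (counts scaled by library size) in pup 1 and 0.0614 in pup 2. These limits cover counting error only. Ncam1, a cell adhesion molecule that can bind Gdnf with Gfra1 in the absence of Ret, was the highest gene of the receptor list at 66.4 and 56.0 TPM.

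Ret, the kinase that carries the signal into the cell, was low beside its co-receptor. Its level was 5.65 TPM in pup 1 and 6.08 TPM in pup 2 (1177 and 1533 expected counts), a mean of 5.87 ± 0.304 (SD, n = 2). The gene, ENSMUSG00000030110.9, lies at chr6:118151745-118197718 on the minus strand. The TPM of Gfra1 was 7.88 times that of Ret in pup 1 and 7.23 times in pup 2, a log2 ratio of 2.92 ± 0.0877. Gdnf stood at 0.782 and 0.778 times the level of Ret in pups 1 and 2 (log2 ratio −0.36 ± 0.00568), and Ret at 3.77 and 4.08 times the level of Gfra2 (log2 ratio 1.97 ± 0.0817). As deposited, ligand and kinase were thus close in level, and the co-receptor Gfra1 was far above both.

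The level of Ret depends on the lengths given to its transcripts. In the deposited tables Ret-202 is 7341 nt and Ret-201 is 6064 nt long, against 4497 nt and 5456 nt in M21. With the M21 lengths, an alternative chosen after the data were seen, Ret had 8.78 TPM in pup 1 and 9.18 TPM in pup 2, 1.53 times the deposited level. It was then above Slco4c1, the order turned, and the log2 ratio of Gfra1 to Ret was 2.30. That of Gdnf to Ret was then −1.04 in place of −0.36, so ligand and kinase were no longer close. Which lengths match the RNA of these kidneys was not tested.

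Ret-202, short-tailed in M21, held most of the Ret signal in both pups. It took 82.4% of the gene's TPM in pup 1 and 73.8% in pup 2, and Ret-201 took 17.6% and 26.2%. As levels, Ret-202 stood at 4.66 and 4.49 TPM and Ret-201 at 0.99 and 1.60 TPM in pups 1 and 2. The deposited intervals of Ret-201, 0.389 to 1.59 TPM in pup 1 and 0.984 to 2.16 in pup 2, overlapped, whereas in each pup those of the 2 forms were apart. Of the 6663 distinct 100-base windows of the 2 forms together in M21, 1306 are found in Ret-202 alone and 2265 in Ret-201 alone, so each M21 form has sequence of its own. These windows and the tails shown above are those of M21. The Ret transcripts of M4, on which the shares were estimated, differ from them in length, and their exon structure was not analysed here.

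Gfra1 was divided between forms with and without the 15-base exon. Gfra1-203, which lacks it, held 55.1% of the gene's TPM in pup 1 and 47.8% in pup 2. The 3 whole coding forms that carry it held 29.8% and 40.3% together, of which Gfra1-201 made up 24.8% and 28.1%. The estimate of the form without the exon was thus higher in both pups, by 1.85-fold in pup 1 and 1.19-fold in pup 2. In pup 2 the deposited interval of Gfra1-203 was 18.5 to 22.8 TPM, against a summed estimate of 17.7 TPM for the forms with the exon. The deposited intervals are per transcript and none covers that sum, so whether the gap in pup 2 exceeds estimation error was not tested. The other 5 transcripts, partial or marked for nonsense-mediated decay in M21, held 15.1% and 11.9% of TPM but 2.42% and 2.08% of the counts. Of the gene's windows 378 are found only in forms with the exon and 97 only in the form without it, out of 4694 in either. Windows were taken over whole transcripts, so the 378 also include differences other than the exon.

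An antisense gene overlaps the 3′ end of Gfra1. Gm16277, on the plus strand of chromosome 19, shares 416 bases of exon with Gfra1, 7.60% of the gene's exonic bases, and had 7.60 TPM in pup 1 and 9.79 TPM in pup 2. Whether reads were counted by strand is not given in the sources used here, so reads of the shared bases cannot be told apart. Its counts, 127 and 201 in pups 1 and 2, were small beside those of Gfra1.

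Etv5 and Etv4, ETS factors of the Pea3 group that act downstream of Ret at the tips, were both high and close to each other. Etv5 had 38.4 TPM in pup 1 and 36.5 TPM in pup 2 (4358 and 5106 expected counts), a mean of 37.4 ± 1.32 (SD, n = 2). Etv4 had 36.8 TPM in pup 1 and 34.0 TPM in pup 2 (1974 and 2270 expected counts), a mean of 35.4 ± 1.96. Etv5 was higher by 1.04-fold in pup 1 and 1.07-fold in pup 2 (log2 ratio 0.08 ± 0.0289), yet the ranges overlapped, since Etv4 in pup 1 exceeded Etv5 in pup 2. Etv5, ENSMUSG00000013089.11, lies at chr16:22381309-22439719 and Etv4, ENSMUSG00000017724.10, at chr11:101769742-101785371, both on the minus strand.

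The third factor of the group, Etv1, had 8.93 TPM in pup 1 and 8.57 TPM in pup 2. It held 10.6% and 10.8% of the summed TPM of the 3 genes, against 45.6% and 46.1% for Etv5 and 43.8% and 43.0% for Etv4. The shares of the 3 genes moved by less than 1 percentage point between the pups.

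The near-equality of Etv5 and Etv4 did not hold when transcripts without a whole coding sequence were left out, an alternative chosen after the data were seen. Etv4-201, with the 18 bases, held 43.1% of the gene's TPM in pup 1 and 49.3% in pup 2, and Etv4-202, without them, held 22.5% and 20.7%. Etv4-207, a processed transcript with no coding sequence in M21, held 14.5% and 7.43%. All 9 transcripts of Etv4 without a coding sequence held 28.5% and 25.8% of TPM but 9.73% and 7.24% of counts, and their lengths ran from 400 to 882 nt. With coding forms alone Etv4 had 26.3 TPM in pup 1 and 25.2 TPM in pup 2, and Etv5 was higher in both (log2 ratio 0.52 ± 0.00646). The same step put Gfra1 at 37.8 and 38.7 TPM, where its range overlapped that of Etv5.

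Etv5 was nearly a single transcript, with 98.7% of TPM in Etv5-201 in pup 1 and 97.6% in pup 2. Of its 100-base windows 15.2% are also found in M21 transcripts of Gm4798. That gene had no entry under this name among the measured genes, so any reads from it may have been counted to Etv5. None of the windows of Gdnf, Ret, Gfra2, Etv4, Dusp6 and Slco4c1 was found in another gene, on either strand. No window was shared between any of the 9 genes.

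**Figure D2:**
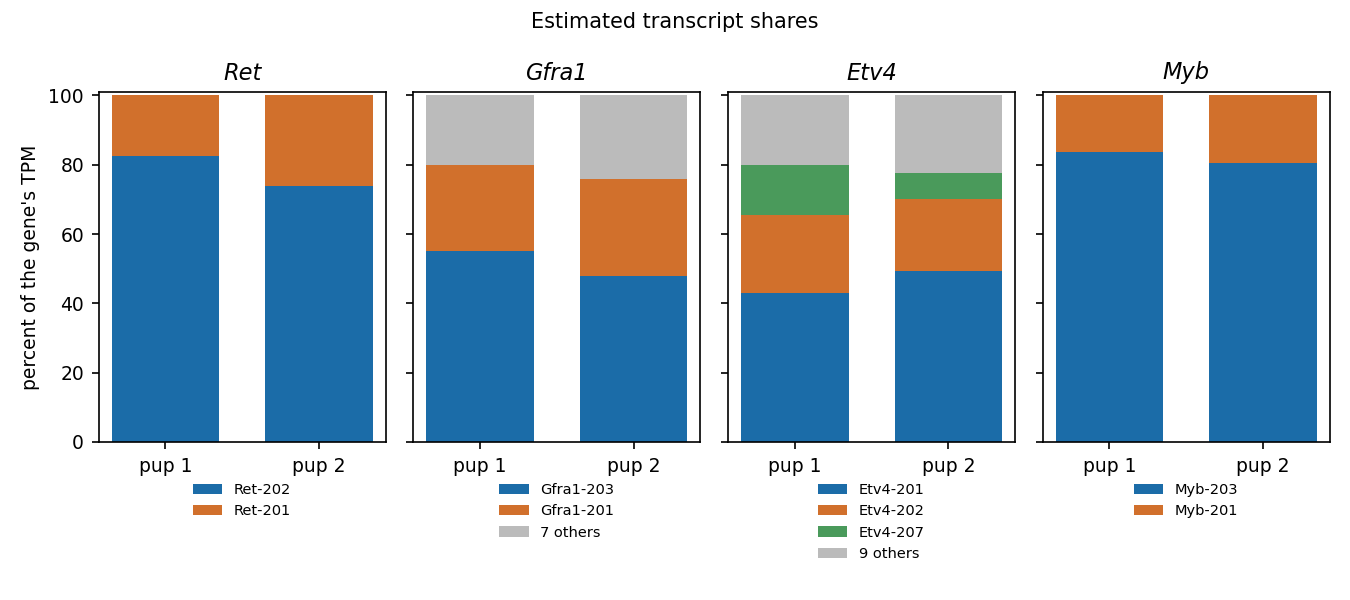
Estimated share of each transcript in the TPM of Ret, Gfra1, Etv4 and Myb, 1 bar per pup; transcripts with a mean share of at least 10% are named and the others summed in grey. Ret-202, Gfra1-203, Etv4-201 and Myb-203 hold the largest share of their gene in both pups.

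Dusp6, the phosphatase that removes the activating phosphates from ERK, was the highest of the 9 genes. Its level was 55.9 TPM in pup 1 and 56.2 TPM in pup 2 (4470 and 5530 expected counts), a mean of 56.0 ± 0.219 (SD, n = 2). The gene, ENSMUSG00000019960.7, is at chr10:99263231-99267489 on the plus strand, with 1 transcript in the tables. It was above Etv5 by 1.46-fold in pup 1 and 1.54-fold in pup 2 (log2 ratio 0.58 ± 0.0566). Above 86.7% of protein-coding genes in pup 1 and 87.5% in pup 2, it was among the more abundant transcripts of the kidney.

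Genes that dampen Ras and ERK signals were detected throughout. Of 12 listed Sprouty, Spred and Dusp genes, 11 were measured and all 11 were detected, with a median of 12.6 TPM in pup 1 and 12.7 in pup 2. Spry2, an inhibitor of Ras activation, was the highest at 70.5 and 72.7 TPM, above Dusp6 in both pups. Spry1, whose loss in mice leads to extra ureteric buds, stood at 26.2 and 31.7 TPM, ahead of the ERK phosphatase Dusp9 at 20.6 and 18.8 TPM. Spred1 (13.3 and 14.0 TPM), Dusp7 (12.6 and 12.7), Spry4 (10.1 and 8.21), Dusp4 (6.70 and 7.27), Dusp5 (6.77 and 7.10) and Spred2 (6.54 and 6.77) lay between, and Spred3 was lowest at 1.40 and 1.06 TPM.

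Slco4c1 and Myb, which are known as genes that respond to Ret signalling in the ureteric bud, were low. Slco4c1, an organic anion transporter, had 6.66 TPM in pup 1 and 7.23 TPM in pup 2 (950 and 1268 expected counts), a mean of 6.95 ± 0.403 (SD, n = 2). Myb, a transcription factor of proliferating progenitors, had 2.12 TPM in pup 1 and 1.72 TPM in pup 2 (219 and 217 expected counts), a mean of 1.92 ± 0.283. Slco4c1 was higher than Myb by 3.14-fold in pup 1 and 4.20-fold in pup 2, the pair ratio that varied most between the pups (log2 ratio 1.86 ± 0.297). Slco4c1, ENSMUSG00000040693.7, is at chr1:96816270-96872171 and Myb, ENSMUSG00000019982.10, at chr10:21124935-21160984, both on the minus strand.

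Most of the Myb signal lay in the long form. Myb-203 carries an extra exon of 357 bases, exon 10 of 16, at chr10:21144969-21145325, and has 755 codons against 636 in Myb-201. It held 83.6% of the gene's TPM in pup 1 and 80.4% in pup 2, from 189 and 181 counts, and Myb-201 held 16.4% and 19.6%. At these counts the deposited interval of Myb-201 ran from near 0 to 0.65 TPM in pup 1 and from 0.0496 to 0.555 TPM in pup 2. The antisense gene Gm26577 covers 559 exonic bases of Myb and had 0.08 TPM in pup 1, with none counted in pup 2. Panct2, antisense to Slco4c1 at 1.22 and 1.20 TPM, shares no exonic base with it.

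**Figure D3:**
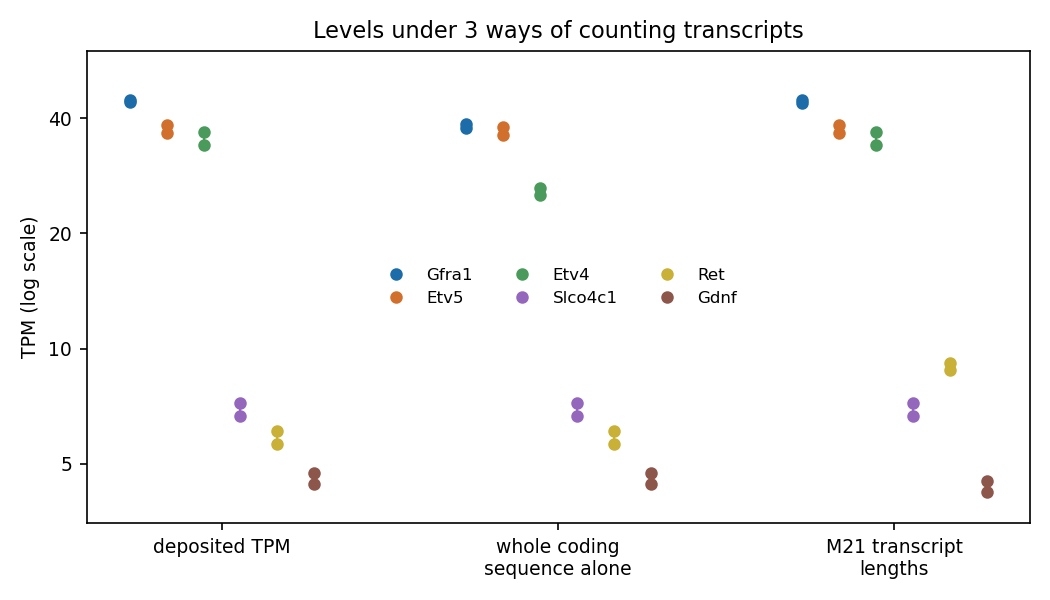
TPM on a log axis of 6 of the genes, 2 pups each, as deposited, from transcripts with a whole coding sequence alone, and with M21 transcript lengths. Leaving out other transcripts puts Etv4 below Etv5 and Gfra1 within the range of Etv5, and the M21 lengths put Ret above Slco4c1.

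No gene of the 9 differed 2-fold between the littermates. Among 15150 genes with at least 50 counts in either pup, 89 (0.587%) differed 2-fold, of which 25 (0.165%) were higher and 64 (0.422%) lower in pup 1. The log2 ratios of pup 1 over pup 2, from CPM scaled by the trimmed mean of M-values (TMM) with 0.1 added, were −0.09 for Dusp6, −0.06 for Gfra1, −0.02 for Etv5 and 0.01 for Etv4. They were −0.20 for Slco4c1, −0.17 for Ret, −0.18 for Gdnf, 0.22 for Myb and −0.07 for Gfra2. The median absolute log2 ratio was 0.09 over the 9 genes and 0.10 over all genes tested, so the 9 varied about as much as other genes.

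Within that small spread, counting error alone did not cover the gap for 5 of the 9 genes. The exact 95% interval of the ratio left out equality for Dusp6, Gfra1, Slco4c1, Ret and Gdnf, each lower in pup 1, as it did for 6126 of the 15150 genes (40.4%). For Gfra1 and Gdnf it ended just short of equality. With 1 library per pup this sets 2 animals apart and carries no p-value. On deposited TPM the median log2 ratio of all genes tested was 0.08 rather than near 0. On that scale Gfra1 (log2 ratio 0.02), Etv5 (0.07) and Gfra2 (0.01) were above 0, but each lay below that median, as they did with TMM. Markers of proximal tubule cells summed to 926 TPM in pup 1 and 691 in pup 2, with 6 of 6 detected and none at 0. Fbp1 (515 and 385 TPM) and Slc34a1 (287 and 203) led both sums, and the median log2 ratio of the 6 was 0.24. Medians for the other cell types with listed markers ran from −0.18 (blood progenitors and lymphocytes) to 0.04 (renal stroma). Single markers moved further, with Six2 at −0.80, Foxd1 at −0.59 and Klf1 at 0.62. The part of any of these cells in the differences was not tested.

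**Figure D4:**
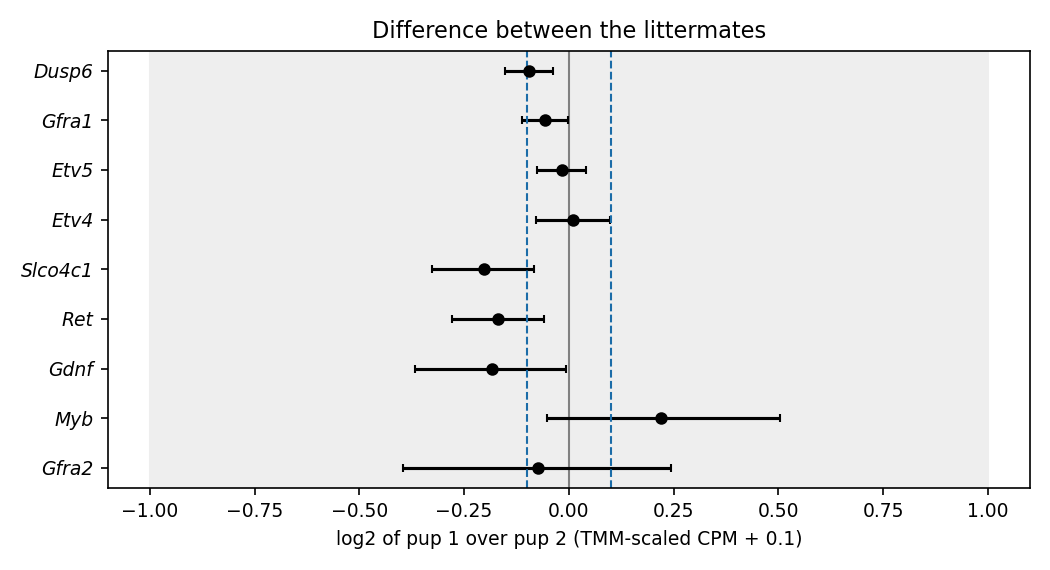
Log2 ratio of pup 1 over pup 2 for each gene (points) with its exact 95% counting interval (bars). The grey band spans less than 2-fold and the dashed lines mark the median absolute ratio of all genes tested, 0.10; each of the 9 points lies within the band, from −0.20 for Slco4c1 to 0.22 for Myb.

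Most of the wider pathway was detected. Of 104 genes in 10 lists around the pathway, 103 were measured and 94 were detected, among them 85 of the 94 that are not in the set of 9. Among all protein-coding genes the share detected was 61.5%. None of the 95 tested differed 2-fold between the pups, and with 0.587% of all genes past that limit, a count of 0 is near the background. All 10 Ras and ERK kinase cascade genes were detected at a median of 63.8 TPM in pup 1 and 59.8 in pup 2, well above Ret. Map2k2, a kinase that activates ERK, led them at 132 and 131 TPM. The small GTPase Hras had 75.4 and 75.9 TPM, and the kinase Braf was lowest at 6.89 and 6.01 TPM.

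Adaptors that bind active Ret or pass its signal on were detected in 18 of 20 cases, with a median of 11.3 TPM in pup 1 and 10.7 in pup 2. Grb10 (129 and 113 TPM), Shc1 (59.2 and 58.4) and Grb7 (60.4 and 53.5) were the highest, and Dok6 was lowest at 0.33 and 0.41 TPM. Of 13 genes listed as responding to Ret at the tips, with Ret itself among them, all 13 were detected, at a median of 26.2 and 27.3 TPM. These are levels in whole kidney, where tip cells cannot be told from others. Whether Ret signalling set them was not tested. Mmp14, a membrane protease, led them at 91.6 and 82.4 TPM, followed by Dusp6 and Etv5, and Myb was lowest.

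Genes listed as upstream of Gdnf were detected in 18 of 20 cases, at a median of 19.1 TPM in pup 1 and 17.1 in pup 2. The cells that express them were not resolved. Npnt, the matrix ligand of the integrin Itga8, led at 208 and 183 TPM, followed by the transcription factor Wt1 at 77.1 and 76.3 and by Itga8 at 33.2 and 29.9. Grem1, a Bmp antagonist needed for the first bud to grow out, was under the detection level at 0.15 and 0.12 TPM. All 12 genes upstream of Ret were detected, led by Ctnnb1 (295 and 285 TPM), Aldh1a2 (147 and 141) and Pax8 (99.5 and 92.2), with Sox8 the lowest at 1.65 and 1.98 TPM. Their median was 23.7 TPM in pup 1 and 23.5 in pup 2.

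Ligands and receptors of other branching signals were detected in 8 of 10 cases. The Fgf receptors Fgfr2 (75.6 and 65.7 TPM) and Fgfr1 (52.1 and 54.5) stood far above Ret, and the Hgf receptor Met at 14.5 and 14.3 TPM was also above it. The lowest was Fgf7 at 0.25 and 0.31 TPM. The median of this list was 2.78 TPM in pup 1 and 2.95 in pup 2.

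All listed markers of kidney cell types were detected, and so were some markers of nerve, adrenal medulla and blood cells, which also use these genes. Markers were detected for ureteric tip (8 of 8, including 4 of the 9 genes), collecting duct and trunk (8 of 8), nephron progenitors (7 of 7), renal stroma (5 of 5), proximal tubule (6 of 6) and cycling cells (4 of 4). Of 10 markers of nerve and adrenal medulla, where Ret and Gfra2 are also expressed, 2 were detected, among them Stmn2, and the 10 summed to 8.34 TPM in pup 1 and 9.71 in pup 2. Of 10 markers of blood progenitors and lymphocytes, where Myb is expressed, 3 were detected, Kit, Ptprc and Cd79a, and the 10 summed to 20.4 and 19.1 TPM. Stmn2, at 5.28 and 5.16 TPM, stood above Gfra2 and just below Ret in both pups. Kit (11.52 and 10.05 TPM) and Ptprc (4.52 and 4.86) stood above Myb. None of these markers was at 0 in both pups, and the part of such cells in the levels of Ret, Gfra2 and Myb was not tested.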

How the data were processed

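For each library, quantified on its own, the authors deposited values per gene and per transcript. Per the file headers these give an expected count (an estimated, not normalized number of reads), TPM, FPKM and posterior mean versions. The deposited TPM is scaled to a fixed total per library, and the deposited FPKM was not used. The deposited transcript table adds each transcript's percent of its gene's TPM, and both tables hold, as a score without a stated level, bounds of an interval of the TPM. The text deposited with the libraries names mm10 and GENCODE M4; the aligner, versions and strand were not stated.

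Genes were named through GENCODE M21 (GRCm38), which matched 42462 of 43346 Ensembl identifiers. Depth was 41584961 and 48823952 expected counts. TMM factors came from edgeR 4.0.16 and alternative size factors from DESeq2 1.42.0 (R 4.3.3), on counts rounded to whole numbers. Other steps ran in Python 3.11.15 with SciPy 1.17.1, Matplotlib 3.10.9, NumPy 2.4.6 and pandas 2.3.3. Detection was at least 1 TPM in both pups. The order of a pair of genes was called where the pups' TPM ranges did not overlap. Pup ratios were log2 of TMM-scaled CPM with 0.1 added, taken where either pup had at least 50 counts, called at 2-fold; intervals are exact binomial at 95% and cover counting error only. With 2 pups of 1 group, 1 residual degree of freedom is left and no p-value is given.

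Named were the 9 genes, 8 gene pairs, transcripts with a mean share of at least 10%, the 3 highest and the lowest gene of each list, and all ligands, receptors, Pea3 factors and feedback genes. The genes, lists and tests were chosen with earlier results of these data known. The detected markers of nerve, adrenal medulla and blood cells are named because of their values. A few genes that this rule names are not reported here. The ratio step was tested on simulated data. Shared sequence was sought as 100-base windows of M21 transcripts. Alternatives covered normalization, pseudocount, filters, detection level, each pup alone, coding forms and M21 lengths.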

Additional observations from a re-analysis of the deposited data

How the results depend on the processing

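No paired analysis was possible because the pups form 1 group. Genes that differed 2-fold between the pups numbered 89, and 38 with 1 added to CPM, 633 with no count minimum (249 higher and 384 lower in pup 1, against 25 and 64) and 27 with a minimum of 200 counts; the cause was not tested. Other normalizations gave 91 to 93, and 0 of the 9 genes passed 2-fold under any of these settings. All 9 genes were detected in each pup alone and under all alternatives except a level of 2 TPM, which left 7. Context genes detected numbered 94 in the main analysis and in each pup alone, and 87 to 96 over detection levels. Pairs with ranges apart numbered 35, and 36 by CPM not per length, where Gfra1 stood above Dusp6 and Ret above Slco4c1. No value changed sign among pair ratios. Depth limits Gfra2 and Myb most, at 150 to 219 counts.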
